A study of Mus musculus with 16 samples.

Results

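Genes of 7 solute carrier (SLC) families that move amino acids across membranes were followed by RNA sequencing of p53−/−; Myc hepatoblasts. Members were picked by symbol alone, as every Slc1, Slc3, Slc6, Slc7, Slc36, Slc38 or Slc43 entry other than pseudogenes that collected at least 10 reads over the 16 libraries together. Of 67 such symbols, 42 reached this minimum and are the members described here, out of 20444 tested genes. They comprised 7 genes of Slc1, 2 of Slc3, 8 of Slc6, 11 of Slc7, 2 of Slc36, 9 of Slc38 and 3 of Slc43. The other 25 symbols had 0 to 9 reads in all, among them Slc6a19, the main neutral amino acid carrier of kidney and gut, with 0, Slc6a14 with 8 and Slc7a10 with 9. Slc1a1, Slc1a7, Slc38a5 and Slc6a2 would have missed the minimum without the reads of their highest group. Slc7a6os matched by its symbol but encodes no transporter.

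The cells are a mouse liver progenitor line that lacks p53 and overexpresses Myc, which all 4 groups share. They were grown with sorafenib, a multikinase inhibitor used against hepatocellular carcinoma, at 8.5 µM, or with its solvent DMSO, for 48 hours or for 7 days, with 4 libraries a group. All libraries come from this line, and nothing in the labels says whether replicates were separate cultures, so the tests measure the spread between these libraries, which may be technical. In bulk RNA, a change in the share of cells that carry a transcript cannot be told apart from a change in the amount per cell.

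Amino acids cross the plasma membrane through carriers of several designs. Sodium-driven carriers of Slc1, Slc6 and Slc38 concentrate them in the cell, whereas the exchangers of Slc7 trade an amino acid outside for another inside, and many of these reach the surface only as a light chain joined to the heavy chain Slc3a2 (CD98). Some Slc36 and Slc38 carriers sit on lysosomes, from which they return amino acids to the cytosol and report to the growth kinase mTORC1. When amino acids run short or the endoplasmic reticulum or mitochondria are disturbed, the transcription factor ATF4 is known to act on composite C/EBP-ATF elements near several transporter genes. Liver cells are known for Slc38a3 and Slc38a4, and tumor cells for Slc7a5, Slc1a5 and Slc7a11.

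A library held 16586254 to 30828427 counts (median 26360677), of which 73645 to 143818 fell on the members. Replicate 2 of sorafenib for 48 hours had lowered counts for genes of chromosomes 15 to 19 and X, at 0.605 times the level of its other genes relative to the other 3 libraries of its group, against ratios of 0.983 to 1.01 in the libraries of the other groups. This stretch holds 12 members. For the 8 of them that averaged 10 normalized counts or more, values at 48 hours are given with and without that library. The other 4, Slc1a1, Slc38a5, Slc3a1 and Slc6a7, did not pass at 48 hours with it (edgeR FDR 0.192, 0.973, 0.0968 and 0.0558) or without it (0.261, 0.797, 0.0937 and 0.0924). Of the members outside the lowered stretch that are given by library below, all but Slc38a3 and Slc6a15 had their highest treated value of 48 hours in replicate 2. Whether the lowered counts raised its other normalized counts was not tested. The line's label was checked against markers. Krt19 and Dlk1 of liver progenitors had at least 865 counts in every library, but Alb had 3 counts in total and Hnf4a 0. Of the other liver epithelial markers, Sox9 had 204 to 1161 counts per library, Foxa2 200 to 1055 and Krt18 99 to 398. Krt8 had 24 to 176, Epcam 1 to 37 and Afp, known from hepatoblasts, 0 to 14. Among markers of other cells, the fibroblast collagens Col1a1 and Col3a1 had 39863 to 81817 and 8944 to 82364 counts per library. The smooth muscle actin Acta2 of myofibroblasts had 4682 to 77571. Cd68, a lysosomal protein used as a macrophage marker, had 47 to 91 counts per library, Des of muscle and stellate cells 12 to 114 and Pecam1 of endothelium 0 to 9. Adgre1, Lrat, Cdh5 and Ptprc of macrophages, stellate cells, endothelium and leukocytes had 0 to 5 in total. With DMSO and then sorafenib, the summed normalized counts of the liver epithelial markers (8 of 10 tested) ranged from 35003 to 36371 and from 12889 to 14807 at 48 hours, and from 18791 to 20604 and from 6899 to 7163 at 7 days. Those of the markers of other cells (6 of 10 tested) ranged from 116558 to 118673 and from 182918 to 198358 at 48 hours, and from 109564 to 113182 and from 124442 to 129081 at 7 days. The first of these sums was mostly Dlk1, which averaged 32234 and 10444 normalized counts with DMSO and sorafenib at 48 hours. At 7 days Dlk1 averaged 16766 and 4020.2. Krt8, Krt18, Krt19 and Epcam also fell at both times and Afp at 7 days, while Sox9 and Foxa2 rose at both times. Among the markers of other cells, Col1a1 and Acta2 rose and Col3a1 fell at both times, and Des fell at 7 days. Krt8, Krt18, Epcam and Acta2 lie in the lowered stretch, and their calls at 48 hours held without replicate 2 of sorafenib. The part of these shifts in the results was not tested. Trp53 itself had 1268 to 4799 counts in every library, which does not check the knockout, as the lost exons are not given in the sources used here.

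Promoter sequence was looked up for all members, since several of them moved together under the drug. RefSeq windows on GRCm38.p6, each 300 bases from 250 before to 50 after a transcription start, matched 29 of the 42 members. Slc1a5, Slc38a1, Slc38a3, Slc43a3, Slc6a15, Slc6a2, Slc6a6, Slc6a7, Slc6a8, Slc7a2, Slc7a3, Slc7a4 and Slc7a5 had no window and were not searched. The letters TGATGNAA, the core of the C/EBP-ATF element, were searched on both strands and stood in 3.97% of all 32851 windows, in 2.67% of the 19010 windows of tested genes and in 4 of the 42 windows of members, those of Slc7a11, Slc1a4 and Slc7a7. The stretches with the matches are shown 5′ to 3′ on the gene's strand with the letters in capitals, as the cystine exchanger Slc7a11 and the serine and alanine exchanger Slc1a4 are among the largest risers described below and Slc7a7 is not.
Slc7a11 (chr3:50443614-50443703, minus strand): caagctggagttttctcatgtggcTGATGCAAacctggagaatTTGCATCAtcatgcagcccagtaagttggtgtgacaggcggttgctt
Slc1a4 (chr11:20332710-20332789, minus strand): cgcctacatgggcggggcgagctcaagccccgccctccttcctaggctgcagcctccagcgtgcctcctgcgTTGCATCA
Slc7a7 (chr14:54417938-54418104, minus strand): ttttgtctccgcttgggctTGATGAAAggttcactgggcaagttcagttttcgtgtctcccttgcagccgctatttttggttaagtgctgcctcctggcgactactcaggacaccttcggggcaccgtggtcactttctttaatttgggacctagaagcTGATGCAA
Relative to the start site, the matches begin at −66 and −47 in Slc7a11, in opposite orientation to each other, at −4 in Slc1a4, and at −141 and −1 in the stretch of Slc7a7. The letters TGACNNNGC, the core of the antioxidant response element bound by NRF2, were searched in the same way. They stood in 12.4% of all windows, in 13.6% of those of tested genes and in 8 of the 42 windows of members. These were windows of Slc6a9, Slc7a1, Slc7a6, Slc36a1, Slc38a2 and Slc43a1, and no member with a window held both motifs. A match gives only the presence of the letters, and binding was not measured.

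Most of these transporters passed the test under sorafenib, in both directions. After 48 hours, 17 members had higher and 10 lower expression than with DMSO, and 15 did not pass the test, where 54.6% of all tested genes passed it, 26.9% higher and 27.7% lower. After 7 days, 20 were higher, 15 lower and 7 not past the threshold, against a background of 56.8%, with 28.9% higher and 27.9% lower. Without the 4 members that reached the count minimum only through their highest group, 17 of 38 were higher and 10 lower at 48 hours and 19 and 14 at 7 days. A gene passed when its false discovery rate (FDR), the Benjamini-Hochberg adjusted p of edgeR's quasi-likelihood test over all tested genes, was under 0.05. The median log2 fold change of the members was 0.19 at both times, beside −0.05 and 0.02 over all tested genes. Without replicate 2 of sorafenib for 48 hours the counts were 17 and 11 at 48 hours and 21 and 15 at 7 days. The groups did not overlap for 28 members at 48 hours and 34 at 7 days, beside 48.0% and 56.8% of all tested genes. Members held 0.303 to 0.315% of a library's reads with DMSO and 0.456 to 0.490% with sorafenib at 48 hours, and 0.319 to 0.334% and 0.465 to 0.468% at 7 days.

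The same direction held at both times for 25 members, 16 higher and 9 lower, where 36.5% of all tested genes did so, 18.5% higher and 18.0% lower. Slc36a4 was higher at 48 hours and lower at 7 days. Of the rest, Slc43a3 passed only at 48 hours, Slc1a7, Slc38a6, Slc38a9 and Slc7a7 were higher and Slc38a5, Slc6a4, Slc6a7, Slc7a6 and Slc7a6os lower only at 7 days in this test, and Slc1a1, Slc36a1, Slc3a1, Slc6a2, Slc6a6 and Slc7a8 passed at neither time. Among the 27 members that averaged 100 normalized counts or more, 15 were higher and 6 lower at 48 hours, a share called of 77.8% that is near the 76.4% of all genes at such levels, of which 40.9% were higher and 35.5% lower. At 7 days 16 were higher and 9 lower, or 92.6% called, beside 76.3%, of which 35.8% were higher and 40.6% lower. A called change of at least 1 on the log2 scale was reached by 10 of the 27 at 48 hours and 11 at 7 days, beside 1419 and 1490 of the 10646 genes at such levels. The 13 members that reached it at either time, together with Slc1a5, Slc38a1 and Slc38a2, are given below library by library. In all 16 the sorafenib and DMSO libraries did not overlap at either time, which is a description only, as 13 of them were picked by these comparisons.

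**Figure D1:**
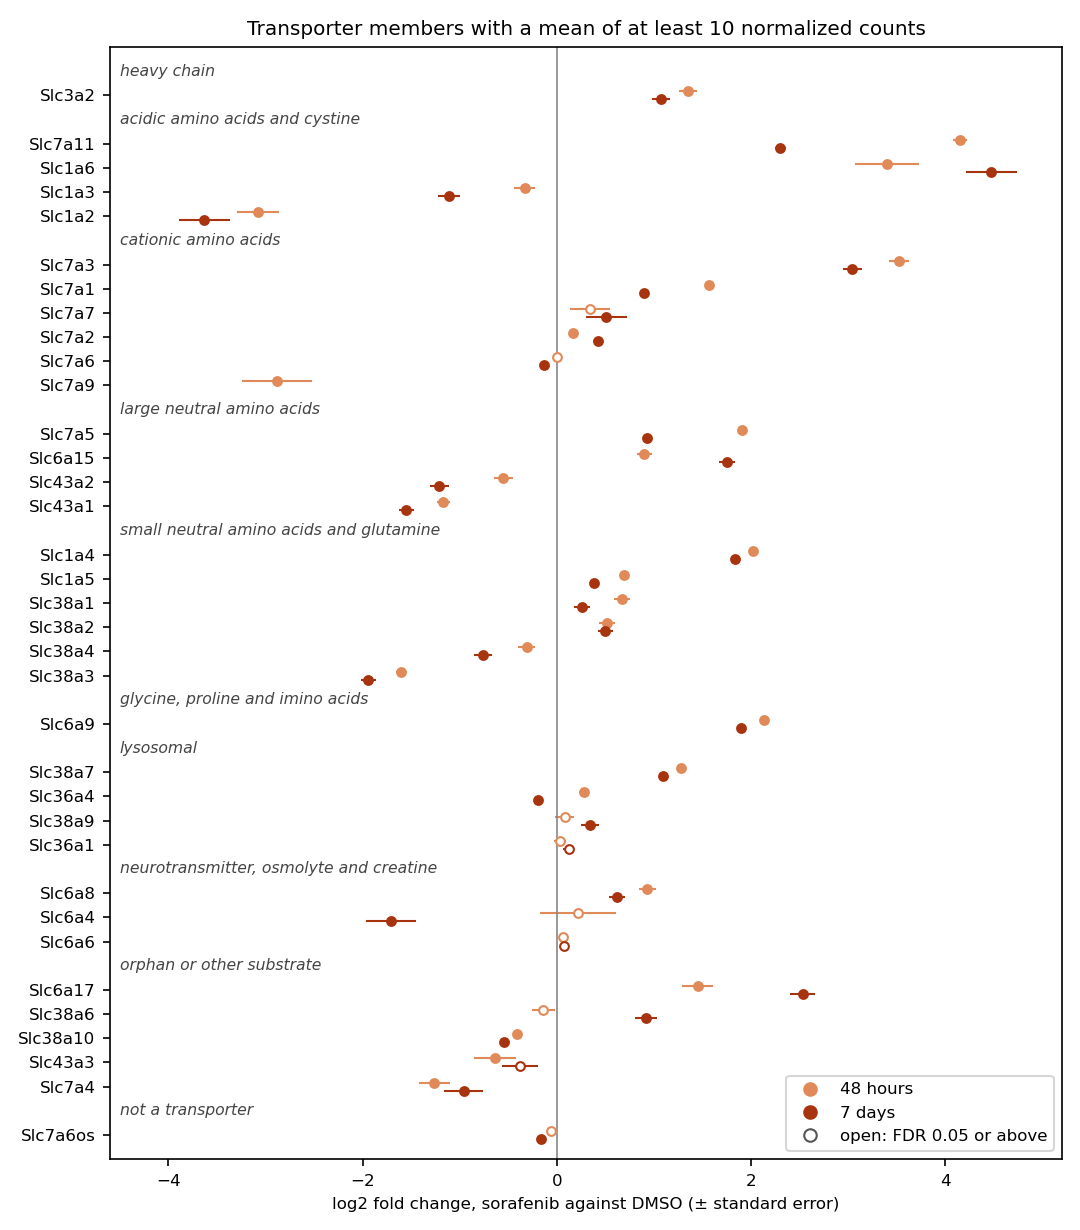
Log2 fold change (x axis) of sorafenib against DMSO at 48 hours (light) and 7 days (dark), ± standard error, for members that averaged 10 normalized counts or more, grouped by substrate. Filled points passed an FDR of 0.05. Slc7a11 lies farthest right at 48 hours (4.15) and Slc1a6 at 7 days (4.47), Slc43a1, Slc43a2, Slc38a3 and Slc1a2 lie left of 0 at both times, and Slc7a9 is drawn at 48 hours only, as it had 1 count in the 4 sorafenib libraries of 7 days.

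The cystine light chain had the largest rise of all members at 48 hours, and the heavy chain rose as well. Slc7a11 (xCT, GRCm39 chr3:49846975-50398070, minus strand), the light chain that brings in cystine for glutathione in exchange for glutamate, had 79.2, 90.2, 96.0 and 89.0 normalized counts with DMSO for 48 hours, 1470.5, 1698, 1570.4 and 1556 with sorafenib for 48 hours, 384, 456, 447 and 417 with DMSO for 7 days, and 2134, 2127, 2143 and 2019.6 with sorafenib for 7 days. No 2 groups overlapped, and the DMSO libraries of 7 days lay above those of 48 hours as well. The rise was 17.7-fold at 48 hours (log2 4.15 ± 0.0688 SE, edgeR FDR 5.21e-20) and 4.93-fold at 7 days (log2 2.30 ± 0.0546, edgeR FDR 5.92e-18). Beside the smaller fold at 7 days stood a vehicle level that was 4.82-fold higher at 7 days than at 48 hours, while the level under sorafenib was 1574 ± 93.9 (SD, n = 4) at 48 hours and 2106 ± 57.9 at 7 days.

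Slc3a2 (CD98 heavy chain, chr19:8684245-8701108, minus strand), which carries Slc7a5, Slc7a6, Slc7a7, Slc7a8 and Slc7a11 to the membrane, had 4258, 4171, 4209 and 4364 normalized counts with DMSO and 11998, 7639, 12019.8 and 11522 with sorafenib at 48 hours. At 7 days it had 5324, 5693, 5607 and 5451 with DMSO and 11713, 11443, 11611 and 11657 with sorafenib. The low value of 7639 is replicate 2, whose counts on chromosome 19 were lowered, and it still lay above every DMSO library. The log2 fold change was 1.35 ± 0.0924 at 48 hours (edgeR FDR 1.20e-10), or 1.48 ± 0.0266 without that library, and 1.07 ± 0.0914 at 7 days (edgeR FDR 3.20e-09). Its annotated span overlaps the noncoding Snhg1 on the other strand, and the strand setting of the counting is not given in the sources used here. Slc3a1, the heavy chain of the kidney cystine carrier, had 0 to 12 counts per library and did not pass the test at either time.

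Among the glutamate carriers (EAAT) of Slc1, the members moved in opposite directions. Slc1a3 (EAAT1, chr15:8663604-8741595, minus strand) had 1851, 1858, 1898 and 1799 normalized counts with DMSO and 1633, 942, 1597 and 1674 with sorafenib at 48 hours. The 7-day libraries had 1107, 1121, 1138 and 1106 with DMSO and 538, 528, 489 and 524 with sorafenib. Replicate 2 was again the low value at 48 hours, and the sorafenib libraries lay below the DMSO libraries at both times with or without it. Its log2 fold change was −0.33 ± 0.107 at 48 hours (edgeR FDR 0.0124), −0.18 ± 0.0354 without replicate 2 (edgeR FDR 1.76e-05), and −1.11 ± 0.116 at 7 days (edgeR FDR 7.22e-08). In a fit of the 8 libraries of 48 hours alone the drug effect missed the threshold (edgeR FDR 0.0840).

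Slc1a2 (EAAT2, the main glutamate carrier of astrocytes) fell from 137 ± 9.30 normalized counts (SD, n = 4) with DMSO to 16.2 ± 3.83 with sorafenib at 48 hours and from 83.3 ± 21.7 to 6.84 ± 3.95 at 7 days, log2 fold changes of −3.08 ± 0.217 and −3.63 ± 0.264 (edgeR FDR 1.75e-10 and 2.70e-10). The opposite was seen for Slc1a6 (EAAT4), known from cerebellar neurons, with 12 counts over the 4 DMSO libraries and 100 over the 4 sorafenib libraries at 48 hours, and 14 and 319 at 7 days. Its log2 fold change was 3.40 ± 0.330 and 4.47 ± 0.262 (edgeR FDR 2.39e-08 and 9.14e-12), and its groups did not overlap at either time. Slc1a7 (EAAT5) had 1 and 2 counts in all at 48 hours and 1 and 10 at 7 days, with overlapping groups. It reached the count minimum only through the treated libraries of 7 days, so nothing is read from its call there (FDR 0.0272, up to 0.0692 with a library left out). Slc1a1 (EAAT3) had 0 to 4 counts per library. Summed per kilobase of exon, the EAAT level was 138 ± 3.07 and 115 ± 22.2 normalized counts per kilobase with DMSO and sorafenib at 48 hours (126 ± 5.29 without replicate 2, n = 3) and 84.1 ± 2.18 and 68.3 ± 3.96 at 7 days. Slc1a3 made up 91.9%, 86.5% (89.2% without replicate 2) and 91.1% of it in the first 3 of these groups and 52.4 ± 4.95% with sorafenib at 7 days, where its range of 46.3 to 57.7% lay below that of every other group.

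Cationic amino acid carriers (CAT), which bring in arginine and lysine, rose together. Slc7a3 (CAT3, chrX:100122745-100129631, minus strand) had 120.2, 121, 128 and 143 normalized counts with DMSO and 1605, 1122, 1530.4 and 1601 with sorafenib at 48 hours. After 7 days the values were 209.8, 171, 164 and 186 with DMSO and 1501, 1502, 1529.7 and 1454 with sorafenib. Every sorafenib library was above every DMSO library, the lowered replicate 2 (1122) included. The rise was 11.5-fold at 48 hours (log2 3.52 ± 0.105, edgeR FDR 2.17e-16), 3.62 ± 0.0608 on the log2 scale without replicate 2, and 8.23-fold at 7 days (log2 3.04 ± 0.0985, edgeR FDR 7.28e-16).

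Slc7a1 (CAT1, chr5:148264220-148336848, minus strand), the widespread arginine carrier, had 4932, 4719, 4693 and 4980.0 normalized counts with DMSO and 13791, 15251, 14311 and 14027 with sorafenib at 48 hours. At 7 days it had 8268, 8707, 8504 and 8506 with DMSO and 16204, 15814, 15663 and 15681 with sorafenib. All 4 groups were apart, with vehicle cells of 7 days between vehicle and treated cells of 48 hours. The rise was 2.97-fold at 48 hours (log2 1.57 ± 0.0334, edgeR FDR 1.38e-18) and 1.86-fold at 7 days (log2 0.90 ± 0.0327, edgeR FDR 4.82e-15). Slc7a2 (CAT2) rose less, from 1481 ± 17.4 to 1659 ± 91.9 normalized counts at 48 hours and from 801 ± 27.8 to 1070.2 ± 40.3 at 7 days, log2 fold changes of 0.17 ± 0.0420 and 0.42 ± 0.0438 (edgeR FDR 0.00224 and 7.59e-08), the first of which missed the threshold when libraries were scaled by total counts (FDR 0.0780). The summed CAT level was 583 ± 14.4 and 1684 ± 18.5 normalized counts per kilobase of exon with DMSO and sorafenib at 48 hours and 838 ± 12.8 and 1759 ± 25.0 at 7 days. Slc7a3 made up 4.53% of it with DMSO for 48 hours and 4.50% with DMSO for 7 days, against 18.0 ± 2.85% (19.3 ± 0.726% without replicate 2) and 17.6 ± 0.395% with sorafenib, and Slc7a2 25.1% and 9.46% with DMSO against 9.74% and 6.01% with sorafenib.

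The exchangers of cationic against neutral amino acids changed less or fell. Slc7a6 (y+LAT2) had 3168 ± 98.9 and 3179.9 ± 84.8 normalized counts with DMSO and sorafenib at 48 hours (log2 0.00 ± 0.0326, edgeR FDR 0.918) and 3047 ± 63.7 and 2778 ± 61.1 at 7 days (log2 −0.13 ± 0.0325, edgeR FDR 0.00153). Slc7a7 (y+LAT1), with 28 to 81 counts per library, had a log2 fold change of 0.34 ± 0.202 at 48 hours (edgeR FDR 0.163) and 0.51 ± 0.213 at 7 days (edgeR FDR 0.0472), a call lost when any 1 of 12 libraries was left out, with FDR up to 0.142 without replicate 3 of DMSO for 7 days. Slc7a9 (b0,+AT), the kidney light chain that pairs with Slc3a1, had 90 counts over the DMSO libraries and 9 over the sorafenib libraries at 48 hours (log2 −2.88 ± 0.360, edgeR FDR 8.54e-07), and 131 and 1 at 7 days (edgeR FDR 3.23e-10). Slc7a4, an orphan of CAT type, fell from 193 ± 19.3 to 78.8 ± 21.0 normalized counts at 48 hours and from 71.4 ± 16.3 to 36.1 ± 6.58 at 7 days (log2 −1.26 ± 0.159, −1.11 ± 0.130 without replicate 2, and −0.96 ± 0.202, edgeR FDR 1.01e-06, 2.04e-10 and 3.96e-04).

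Of the carriers of large neutral amino acids such as leucine, the exchanger Slc7a5 rose and the facilitated carriers of Slc43 fell. Slc7a5 (LAT1, chr8:122607884-122634433, minus strand), the light chain that supplies leucine to growing cells, had 4828, 4789.7, 4787 and 4875 normalized counts with DMSO and 17953, 19498, 17593 and 17297 with sorafenib at 48 hours. The 7-day libraries had 8456, 8726, 8927 and 8408 with DMSO and 16760.0, 16589.8, 16176 and 16314 with sorafenib. Treated cells of 48 hours were the highest group and vehicle cells of 48 hours the lowest, and no 2 groups overlapped. The rise was 3.75-fold at 48 hours (log2 1.91 ± 0.0348, edgeR FDR 1.84e-19) and 1.91-fold at 7 days (log2 0.93 ± 0.0338, edgeR FDR 4.59e-15). Its paralog Slc7a8 (LAT2) had 0 to 8 counts per library and passed in neither drug comparison.

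Slc43a1 (LAT3, chr2:84669194-84698315, plus strand), which lets large neutral amino acids pass without a sodium gradient or exchange, had 550.3, 562, 528 and 588 normalized counts with DMSO and 243, 292, 219.9 and 244 with sorafenib at 48 hours. After 7 days the values were 338, 334, 319 and 339 with DMSO and 119, 115, 107 and 114 with sorafenib. The 4 groups were apart, and the treated libraries of 7 days were the lowest. Log2 fold changes were −1.17 ± 0.0684 and −1.55 ± 0.0769 (edgeR FDR 9.44e-12 and 6.78e-13). Slc43a2 (LAT4, chr11:75421362-75477630, plus strand), of the same type, had 203, 201, 212 and 223 normalized counts with DMSO and 126, 174, 123 and 156 with sorafenib at 48 hours. At 7 days it had 228, 229.6, 229.6 and 259 with DMSO and 88.9, 111, 113 and 93.5 with sorafenib. Treated libraries were below vehicle libraries at both times, and the sorafenib libraries of 48 hours spread from 123 to 174. Its log2 fold changes were −0.55 ± 0.102 and −1.21 ± 0.101 (edgeR FDR 1.11e-04 and 2.61e-09). Slc43a3, a carrier of purine bases rather than amino acids, had log2 fold changes of −0.64 ± 0.217 and −0.38 ± 0.183 (edgeR FDR 0.0172 and 0.0833), and its call at 48 hours was lost without replicate 2 of DMSO for 48 hours (−0.57, edgeR FDR 0.0521).

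Slc6a15 (B0AT2, chr10:103202915-103255240, plus strand), a sodium-driven carrier of branched-chain amino acids and proline known from the brain, differed from most risers in its timing. It had 247, 229.9, 254 and 249 normalized counts with DMSO and 474, 426, 491 and 430.4 with sorafenib at 48 hours. The 7-day libraries had 91.9, 123, 124 and 124 with DMSO and 366, 426, 392 and 385 with sorafenib. Sorafenib libraries were higher at both times, while vehicle libraries were lower at 7 days than at 48 hours. The log2 fold change was 0.90 ± 0.0771 at 48 hours and 1.75 ± 0.0845 at 7 days (edgeR FDR 3.73e-09 and 4.36e-13).

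Carriers of small neutral amino acids and glutamine included strong risers, mild risers and the liver's own carriers, which fell. Slc1a4 (ASCT1, chr11:20252180-20282774, minus strand), an exchanger of alanine, serine, cysteine and threonine, had 910.0, 802, 940.3 and 874 normalized counts with DMSO and 3612, 3694, 3465 and 3481 with sorafenib at 48 hours. After 7 days the values were 1046, 1072, 1089 and 1055 with DMSO and 3767, 3785, 3789.7 and 3833 with sorafenib. The treated groups lay within a narrow band far above the vehicle groups. The rise was 4.04-fold at 48 hours (log2 2.02 ± 0.0418, edgeR FDR 9.71e-19) and 3.56-fold at 7 days (log2 1.83 ± 0.0409, edgeR FDR 2.39e-18).

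Slc1a5 (ASCT2, chr7:16515265-16532731, plus strand), its paralog that exchanges glutamine, had 4764, 4627, 4763 and 4482 normalized counts with DMSO and 7441, 8088, 7284 and 7265 with sorafenib at 48 hours. At 7 days it had 4131, 3949.9, 3969 and 3936 with DMSO and 5244, 5194, 5177 and 5188 with sorafenib. The treated libraries were higher at each time, by 1.61-fold at 48 hours (log2 0.69 ± 0.0348, edgeR FDR 9.04e-13) and 1.30-fold at 7 days (log2 0.38 ± 0.0348, edgeR FDR 9.53e-09). Per kilobase of exon, both exchangers together measured 1073 ± 34.8 and 2248 ± 96.0 normalized counts with DMSO and sorafenib at 48 hours. Without replicate 2 the treated level was 2203 ± 37.0 (n = 3). At 7 days they together measured 995 ± 14.6 with DMSO and 1876 ± 5.53 with sorafenib. Slc1a4 made up 19.8 ± 0.927% and 38.3 ± 0.620% of this at 48 hours and 25.9 ± 0.684% and 48.8 ± 0.291% at 7 days, so that in treated cells of 7 days the level of the serine and alanine exchanger came close to that of the glutamine exchanger.

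System A, the sodium-coupled uptake of glutamine and alanine through Slc38a1, Slc38a2 and Slc38a4, is encoded by neighbors on chromosome 15 in the stretch lowered in replicate 2. Slc38a2 (SNAT2, chr15:96585266-96597894, minus strand), known to be induced when amino acids are scarce, had 8097, 7977, 8178 and 7877 normalized counts with DMSO and 12600.0, 8474, 12629 and 12413 with sorafenib at 48 hours. The 7-day libraries had 9207, 9544, 9179 and 9189.7 with DMSO and 12745, 13179.5, 13137 and 13391 with sorafenib. Replicate 2, at 8474, lay just above the highest DMSO library (8178). The log2 fold change was 0.52 ± 0.0816 at 48 hours (edgeR FDR 1.52e-05), 0.64 ± 0.0252 without replicate 2, and 0.50 ± 0.0813 at 7 days (edgeR FDR 2.44e-05).

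Slc38a1 (SNAT1, chr15:96469298-96541851, minus strand) had 7259, 7686, 7463 and 7478 normalized counts with DMSO and 12955, 8639, 13029.6 and 12851 with sorafenib at 48 hours. After 7 days the values were 9755, 9799.7, 9698 and 9903 with DMSO and 11801, 11605, 11846 and 11558 with sorafenib. The low value was again replicate 2, and treated libraries stayed above vehicle libraries. Its log2 fold change was 0.67 ± 0.0836 at 48 hours (edgeR FDR 8.71e-07), 0.79 ± 0.0246 without replicate 2, and 0.26 ± 0.0830 at 7 days (edgeR FDR 0.0123). Slc38a4 (SNAT4), the carrier of this system known from liver, went the other way, from 7366 ± 347 to 5918 ± 1133 normalized counts at 48 hours and from 7679 ± 157 to 4529 ± 109 at 7 days. Its log2 fold change was −0.31 ± 0.0897 at 48 hours (edgeR FDR 0.00562, and 0.0553 in a fit of the 48-hour libraries alone), −0.18 ± 0.0292 without replicate 2 (edgeR FDR 3.48e-07), and −0.76 ± 0.0900 at 7 days (edgeR FDR 3.81e-07).

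Summed per kilobase of exon, the 3 system A genes gave 2416 ± 67.6 and 2774 ± 507 normalized counts with DMSO and sorafenib at 48 hours. Replicate 2 measured 2014, and without it the treated level was 3028 ± 22.5 (n = 3), above every DMSO library of that time. At 7 days the sums were 2718 ± 43.5 and 2704 ± 32.1, where the ranges of 2682 to 2779 and 2657 to 2728 overlapped. The makeup shifted all the same. Slc38a4 made up 49.3 ± 0.987% of the sum with DMSO and 34.5 ± 0.471% with sorafenib at 48 hours, and 45.7 ± 0.254% and 27.1 ± 0.480% at 7 days, with no overlap between groups. Slc38a2 took 34.3% and 42.9% at 48 hours, and 34.9 to 35.4% and 49.5 to 50.9% at 7 days. In replicate 2 all 3 genes lie in the lowered stretch, and the treated share of Slc38a4 at 48 hours spanned only 33.9 to 34.9% with it included.

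Slc38a3 (SNAT3, chr9:107527815-107547018, minus strand), the system N carrier through which liver cells move glutamine, histidine and asparagine, had the largest fall of the members that averaged 100 normalized counts or more. It had 924, 945, 971 and 986 normalized counts with DMSO and 297, 321, 317 and 327 with sorafenib at 48 hours. At 7 days it had 310.3, 302, 275 and 263 with DMSO and 69.7, 75.5, 81.3 and 70.8 with sorafenib. Vehicle libraries of 7 days lay about as low as treated libraries of 48 hours, with overlapping ranges, and treated libraries of 7 days lay below all others. Log2 fold changes were −1.60 ± 0.0561 and −1.94 ± 0.0741 (edgeR FDR 2.78e-15 and 9.89e-15). Slc38a5, the other system N member, had 0 to 2 counts per library and none in the sorafenib libraries of 7 days. A count of 0 still allows 2.44 to 4.54 normalized counts, a range over all 16 libraries, so no fold is given. It reached the count minimum only through the vehicle libraries of 7 days, so its call at that time (edgeR FDR 0.0147, and 0.0666 with the replicate number as a block) is not read as a fall.

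**Figure D2:**
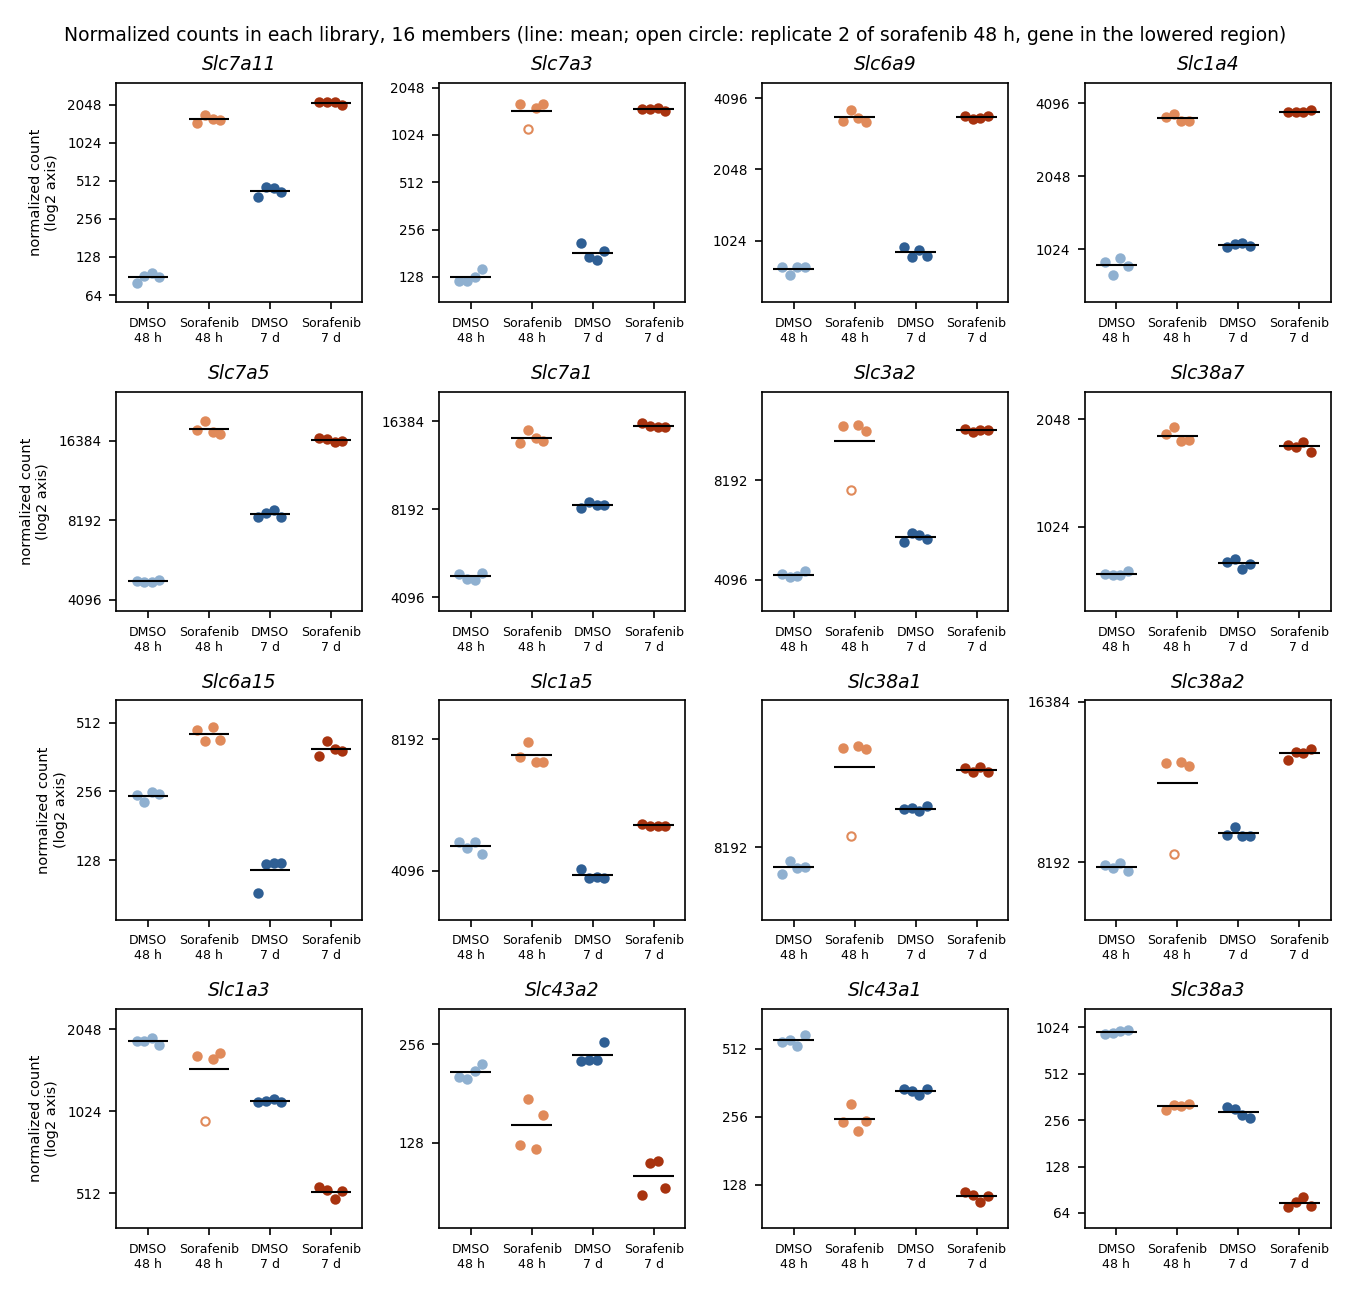
Normalized counts (y axis, log2 scale) of the 16 members described by library, in the 4 groups on the x axis. Each point is a library, lines are group means, and open circles mark replicate 2 of sorafenib for 48 hours where the gene lies in its lowered stretch. In every panel the treated points lie apart from the vehicle points of the same time, from Slc7a11 at the top left, whose treated libraries reach 2143, to Slc38a3 at the bottom right, whose treated libraries of 7 days reach down to 69.7.

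Slc6a9 (GlyT1, chr4:117691703-117732395, plus strand), the sodium- and chloride-driven glycine carrier, had 793, 729, 790.2 and 789 normalized counts with DMSO and 3288, 3650.3, 3378 and 3258 with sorafenib at 48 hours. The 7-day libraries had 957, 873, 937 and 884 with DMSO and 3434, 3357, 3392 and 3456 with sorafenib. The treated libraries of 7 days lay within the range of those of 48 hours, whose highest value was replicate 2 (3650.3). Without replicate 2 the ranges still overlapped, but all 7-day values except 3357 lay above the highest remaining one, 3378. All treated libraries lay far above all vehicle libraries. The rise was 4.38-fold at 48 hours (log2 2.13 ± 0.0438, edgeR FDR 9.22e-19) and 3.74-fold at 7 days (log2 1.90 ± 0.0430, edgeR FDR 2.86e-18). Its annotated span overlaps B4galt2 and Ccdc24 on the other strand. The proline carrier Slc6a7 of the brain had 18 counts over the DMSO and 3 over the sorafenib libraries at 48 hours (edgeR FDR 0.0558), and 9 and 0 at 7 days (edgeR FDR 0.0150, up to 0.0684 with a library left out).

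Among the lysosomal carriers, Slc38a7 alone changed by at least 1 on the log2 scale. Slc38a7 (SNAT7, chr8:96562548-96580189, minus strand), which exports glutamine and asparagine from lysosomes, had 757, 749, 751 and 771 normalized counts with DMSO and 1866, 1946, 1777 and 1791 with sorafenib at 48 hours. After 7 days the values were 816, 833, 782 and 804 with DMSO and 1739, 1709, 1772 and 1659.5 with sorafenib. Treated libraries were above vehicle libraries at both times, by 2.43-fold (log2 1.28 ± 0.0387, edgeR FDR 2.61e-16) and 2.13-fold (log2 1.09 ± 0.0381, edgeR FDR 2.53e-15). Slc36a4 (PAT4) had log2 fold changes of 0.28 ± 0.0493 and −0.19 ± 0.0483 (edgeR FDR 6.62e-05 and 0.00182). Slc38a9, the arginine sensor of mTORC1, had 0.08 ± 0.0958 and 0.34 ± 0.0956 (edgeR FDR 0.488 and 0.00522), and the proton-coupled Slc36a1 had 0.03 ± 0.0603 and 0.12 ± 0.0595 (edgeR FDR 0.710 and 0.107).

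Slc6 members that carry other small molecules behaved each in its own way. Slc6a6, the taurine carrier, held the most counts of all members and had 13323 ± 246 and 13881 ± 559.7 normalized counts with DMSO and sorafenib at 48 hours and 12028 ± 333 and 12619 ± 193 at 7 days, with overlapping groups (log2 0.06 ± 0.0308 and 0.07 ± 0.0308, edgeR FDR 0.116 and 0.0627). Slc6a8, the creatine carrier on chromosome X, rose from 1102 ± 15.8 to 2093 ± 384 at 48 hours and from 1351 ± 65.4 to 2074 ± 39.4 at 7 days (log2 0.93 ± 0.0880, 1.05 ± 0.0359 without replicate 2, and 0.62 ± 0.0861, edgeR FDR 1.62e-08, 3.55e-30 and 3.54e-06). The serotonin carrier Slc6a4 had 26 and 23 counts over the DMSO and sorafenib libraries of 48 hours (edgeR FDR 0.702), and 130 and 39 over those of 7 days, a log2 fold change of −1.71 ± 0.259 (edgeR FDR 1.02e-05). Slc6a2, the noradrenaline carrier, had 0 to 3 counts per library. Slc6a17, a vesicle carrier of neutral amino acids known from neurons, rose from 21.5 ± 3.00 to 59.7 ± 8.99 normalized counts at 48 hours and from 25.1 ± 4.05 to 145 ± 9.04 at 7 days (log2 1.45 ± 0.162 and 2.53 ± 0.131, edgeR FDR 1.80e-07 and 1.27e-12).

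Of the less known Slc38 members, Slc38a10 fell from 5115 ± 151 to 3840.4 ± 46.0 normalized counts at 48 hours and from 3988 ± 56.3 to 2751 ± 41.6 at 7 days (log2 −0.41 ± 0.0288 and −0.54 ± 0.0290, edgeR FDR 1.52e-10 and 2.61e-12). Slc38a6 had a log2 fold change of −0.14 ± 0.116 at 48 hours (edgeR FDR 0.334), which passed without replicate 2 of sorafenib (−0.27, edgeR FDR 0.0325), and rose from 109 ± 16.2 to 206 ± 6.71 at 7 days (log2 0.92 ± 0.114, edgeR FDR 7.26e-07). Slc7a6os, which is no transporter, had log2 fold changes of −0.06 ± 0.0389 and −0.16 ± 0.0378 (edgeR FDR 0.212 and 8.97e-04).

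Levels can be compared between genes only per length. With DMSO for 48 hours, Slc7a5 stood highest at 1255 ± 10.7 normalized counts per kilobase of exon, ahead of Slc38a4 (1192 ± 56.1) and Slc6a6 (1093 ± 20.2), whose libraries overlapped each other, then Slc3a2 (911 ± 17.9), Slc1a5 (859.9 ± 24.8) and Slc38a2 (828 ± 13.6), the last pair also overlapping. Slc7a11, at 5.71 ± 0.449, ranked 32 of 42. The light chains of Slc3a2 summed to 1755 ± 20.7 and 5308 ± 274 normalized counts per kilobase with DMSO and sorafenib at 48 hours. Without replicate 2 the treated sum was 5176 ± 90.9 (n = 3). At 7 days the sums were 2748 ± 69.0 with DMSO and 4856 ± 69.6 with sorafenib. Slc7a5 made up 71.5%, 88.7%, 81.8% and 88.3% of this sum in these groups, and Slc7a11 0.325%, 1.91%, 0.998% and 2.79%. The ratio of the light chains to Slc3a2 was 1.93 ± 0.0273 with DMSO and 2.04 ± 0.0273 with sorafenib at 48 hours without replicate 2 (2.40 ± 0.723 with it), and 2.32 ± 0.0474 and 1.95 ± 0.0360 at 7 days. Over all transporters of the families, the summed level was 9669.9 ± 69.3 and 17822 ± 619.7 normalized counts per kilobase at 48 hours (18123 ± 178 without replicate 2) and 11048 ± 139.9 and 16770.0 ± 77.7 at 7 days. These lengths are the joined exons of each gene in GENCODE vM39, and no transcript isoforms were separated.

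**Figure D3:**
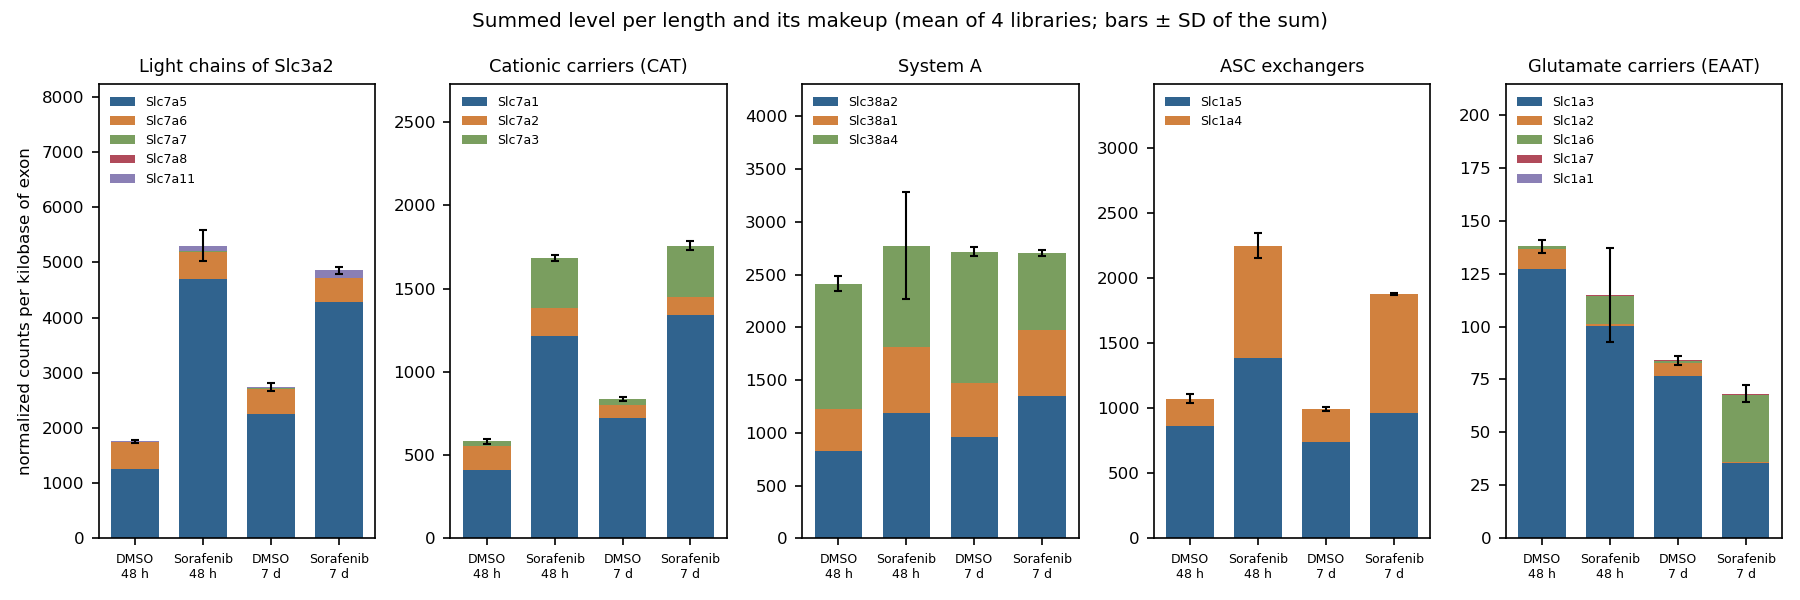
Summed level of 5 transporter systems in normalized counts per kilobase of exon (y axis), stacked by gene, for the 4 groups (x axis). Bars are means of 4 libraries and black lines ± SD of the sum. The system A bars of 7 days have nearly the same height (2718 and 2704) while the Slc38a4 part is smaller with sorafenib, and the Slc7a3 part of the cationic carriers and the Slc1a4 part of the ASC exchangers are larger with sorafenib at both times.

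The response differed between 7 days and 48 hours for 23 members, with a lower log2 fold change at 7 days in 19 and a higher one in 4, where 36.8% of all tested genes passed this test of the interaction, 21.3% lower and 15.5% higher. A lower value was a smaller rise in members such as Slc7a11, Slc7a5 and Slc7a1, but a larger fall in Slc1a3, Slc38a3, Slc38a4, Slc43a1 and Slc43a2 among others. Both drug comparisons enter this difference, and the vehicle comparison that follows shares the DMSO libraries of both times with it. The median difference was −0.25 for members and 0.02 for all tested genes. Scaling by total counts gave 12 lower and 5 higher and moved the median of all genes to 0.12, and leaving out replicate 2 of sorafenib for 48 hours gave 22 lower and 6 higher. The largest differences among members with at least 100 normalized counts on average were those of Slc7a11 (−1.85 ± 0.0912, edgeR FDR 3.58e-12), Slc38a6 (1.06 ± 0.163, edgeR FDR 2.75e-05), Slc7a5 (−0.98 ± 0.0477, edgeR FDR 3.12e-12), Slc6a15 (0.85 ± 0.116, edgeR FDR 6.47e-06) and Slc1a3 (−0.77 ± 0.158, edgeR FDR 5.75e-04). Slc7a1 (−0.67 ± 0.0462, edgeR FDR 5.28e-10) and Slc43a2 (−0.66 ± 0.145, edgeR FDR 0.00120) came next. For Slc3a2 the difference was −0.27 ± 0.128 (edgeR FDR 0.108), and −0.41 ± 0.0361 without replicate 2 (edgeR FDR 1.15e-13). Without that library Slc1a3, also in its lowered stretch, had −0.93 ± 0.0532 (edgeR FDR 2.06e-20). Slc38a1 and Slc38a4 had −0.54 and −0.58 without it, beside −0.41 and −0.45 with it. Slc6a8 (−0.43, edgeR FDR 1.10e-10) and Slc38a2 (−0.15, edgeR FDR 4.17e-04) passed in the fit without it and not in the fit of all 16 libraries. The small differences of Slc1a4 (−0.18), Slc38a7 (−0.20), Slc6a9 (−0.23), Slc38a3 (−0.34) and Slc43a1 (−0.38) passed with TMM scaling but not with total-count scaling. That of Slc1a4 was also lost without replicate 4 of DMSO or replicate 1 of sorafenib for 48 hours (FDR 0.0628 and 0.0653). The difference of Slc7a3 (−0.48, edgeR FDR 0.0167) was lost without replicate 1 of DMSO or of sorafenib for 48 hours (FDR 0.0562 and 0.0505). Slc7a3 also lies in the lowered stretch of replicate 2 of sorafenib, and its call held without that library. Those of Slc38a10 (−0.12) and Slc7a6 (−0.14) were lost when any 1 of 5 libraries each was left out (FDR up to 0.170 and 0.130, both without replicate 3 of DMSO for 48 hours).

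Vehicle cells of the 2 times differed as well. Between DMSO for 7 days and DMSO for 48 hours, 15 members were higher and 13 lower at 7 days, where 49.4% of all tested genes passed, 23.9% higher and 25.5% lower. The median log2 difference was 0.13 for members and −0.01 for all tested genes, and 29 members had no overlap, beside 50.8% of all tested genes. Slc7a11 (2.27 ± 0.0748, edgeR FDR 6.35e-15), Slc7a5 (0.84 ± 0.0341, edgeR FDR 1.13e-13), Slc7a1 (0.81 ± 0.0330, edgeR FDR 1.11e-13), Slc7a3 (0.50 ± 0.126, edgeR FDR 0.00226) and Slc3a2 (0.38 ± 0.0914, edgeR FDR 0.00175) were higher in the 7-day vehicle cells. The serotonin carrier Slc6a4 rose from 5.92 ± 2.00 to 29.7 ± 6.92 normalized counts (2.29 ± 0.280, edgeR FDR 8.71e-07). Lower in 7-day vehicle cells were Slc38a3 (−1.73 ± 0.0548, edgeR FDR 3.76e-15), Slc7a4 (−1.45 ± 0.155, edgeR FDR 1.45e-07), Slc6a15 (−1.07 ± 0.0888, edgeR FDR 4.01e-09), Slc7a2 (−0.89 ± 0.0432, edgeR FDR 1.61e-12), Slc43a1 (−0.74 ± 0.0637, edgeR FDR 6.04e-09) and Slc1a3 (−0.73 ± 0.107, edgeR FDR 9.72e-06). The weakest calls changed with single libraries. Slc38a2 (0.21, edgeR FDR 0.0401) was lost when any 1 of 10 libraries was left out (FDR up to 0.107). It lies in the lowered stretch of replicate 2 of sorafenib for 48 hours, and without that library it was 0.21 ± 0.0235 (edgeR FDR 7.29e-11). Slc7a9 (0.54, edgeR FDR 0.0416) was lost with any 1 of 6 left out (FDR up to 0.180, without replicate 3 of DMSO for 7 days). Slc36a1 (−0.15, edgeR FDR 0.0368) was lost with any 1 of 4 (FDR up to 0.134, without replicate 2 of DMSO for 7 days).

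Slc7a8 (LAT2) had 1 count in all 4 vehicle libraries of 48 hours and 17 in those of 7 days (edgeR FDR 0.00178). In treated cells the levels of the 2 times came closer for several risers. The ranges of treated libraries at 48 hours and 7 days overlapped for Slc6a9, Slc7a3, Slc3a2, Slc38a1 and Slc6a8, whereas for Slc7a11, Slc1a4, Slc7a1 and Slc38a2 the treated libraries of 7 days lay above, and for Slc7a5, Slc1a5 and Slc38a7 below, those of 48 hours. Without replicate 2 of sorafenib for 48 hours, Slc7a3, Slc38a1 and Slc6a8 did not overlap, and Slc3a2 and Slc6a9 still did. Treated cells of the 2 times were not tested against each other.

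Other genes of amino acid handling, taken from lists written by hand, give the surroundings. Of 20 tested carriers of other families, mostly of mitochondria and lysosomes, 10 were higher and 4 lower at 48 hours, where 54.6% of all tested genes passed, and 6 were higher and 4 lower at 7 days, where 56.8% passed. The medians were 0.14 and −0.03, and the count at 7 days is below that share. Slc17a8, a vesicular glutamate carrier, rose from 2.33 ± 0.542 to 27.3 ± 11.2 normalized counts at 48 hours (log2 3.43 ± 0.370, edgeR FDR 1.08e-07) and from 7.35 ± 0.938 to 18.2 ± 3.20 at 7 days (1.27 ± 0.302, edgeR FDR 0.00119). Slc16a10, which carries aromatic amino acids, rose from 598 ± 39.4 to 991 ± 34.1 at 48 hours (log2 0.73 ± 0.0530, edgeR FDR 2.97e-10). Slc17a7, another vesicular glutamate carrier, had 0 to 20 counts per library and log2 fold changes of −1.09 ± 0.586 and −1.46 ± 0.554 (edgeR FDR 0.126 and 0.0302), and the inhibitory vesicle carrier Slc32a1 had 0 to 3 counts.

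For the amino acid response, the program around ATF4, 15 genes were listed by hand with earlier results of these data known. They include Vldlr, whose upregulation the paper reports from the same RNA sequencing, so the counts are a description only. Of these, 12 were higher and 1 lower at 48 hours, beside 26.9% and 27.7% of all tested genes. At 7 days 12 were higher and 2 lower, beside 28.9% and 27.9%, and the medians were 2.01 and 1.57. Trib3, a pseudokinase of this program, rose from 294 ± 14.6 to 5666 ± 319 normalized counts at 48 hours and from 361 ± 23.7 to 4844 ± 129 at 7 days (log2 4.27 ± 0.0533 and 3.75 ± 0.0517, edgeR FDR 1.06e-21 and 2.40e-21). The glutathione-degrading enzyme Chac1 rose by 3.58 ± 0.0741 and 2.76 ± 0.0693 on the log2 scale (edgeR FDR 9.71e-19 and 1.37e-17), and the transcription factor Ddit3 (CHOP) by 3.57 ± 0.0508 and 2.90 ± 0.0484 (edgeR FDR 7.00e-21 and 3.62e-20). These lists were counted without a test of the list, and whether they and the transporters share a cause was not tested.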

How the data were processed

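RNA of p53−/−; Myc hepatoblasts was sequenced as stranded mRNA libraries. Per the submitters' processing notes the authors used STAR 2.7.1a, featureCounts 2.0.6 and the build GRCm39, and the deposited values are raw read counts for 40840 genes in 16 libraries, with no pooling or normalization. The strand setting and gene annotation of the counting are not given in the sources used here. Counts of 10 members whose annotated span overlaps another tested gene are uncertain to that extent.

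Genes with at least 10 counts in total (20444) were tested with edgeR 4.0.16 in R 4.3.3, by the quasi-likelihood test with TMM factors. All 16 libraries shared 1 model with a coefficient for each group, and the threshold was an FDR (Benjamini-Hochberg) under 0.05. A normalized count is a count divided by the product of its library's total and TMM factor, scaled back by the geometric mean of these products, given as mean ± SD over 4 libraries unless ± follows a log2 fold change, where it is the SE. A floor of 3 counts equals 2.44 to 4.54 normalized counts and covers counting error only. Replicates of a group differed by at least 1.58 chi-square units per gene, more than counting error.

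Members, lists and tests were chosen with earlier results of these data known. Members averaging 100 normalized counts or more with a called change of at least 1 on the log2 scale at either time, with Slc3a2, Slc7a11, Slc7a5, Slc1a5, Slc38a1 and Slc38a2, are given by library. Members above a mean of 10 are given by group, others by counts, and of the other lists the 3 largest changes at each time are named. Positions are from GENCODE vM39 (GRCm39), and promoters from RefSeq (GRCm38.p6, no coordinates converted). The lowered stretch of 1 library was placed from the running difference to its group in genome order, beginning on chromosome 15.

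The alternatives were DESeq2 1.42.0, its size factors, total counts, other count minimums, a log2 fold threshold of 1, only the libraries compared, the replicate number as a block, limma 3.58.1 voom with sample quality weights, and each library left out. The analysis steps were tested on simulated data.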

Additional observations from a re-analysis of the deposited data

Results flagged for a closer look

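In the 64 groups of 4 libraries of the 16 members given by library, 11 values stood apart from the other 3 by a gap past Dixon's critical value. Chance gives about 1 in 20 groups if these are independent, which the values of 1 library in several genes are not. In replicate 2 of sorafenib for 48 hours these were Slc1a3 at 942, Slc38a1 at 8639, Slc38a2 at 8474, Slc3a2 at 7639 and Slc7a3 at 1122 normalized counts, all below the other 3 libraries and all on chromosomes 15, 19 and X of its lowered stretch. The other 6 were on other chromosomes or in other libraries. Replicate 1 of DMSO for 7 days had Slc1a5 at 4131 and Slc6a15 at 91.9, replicate 2 of DMSO for 7 days Slc38a2 at 9544, replicate 4 of DMSO for 7 days Slc43a2 at 259, replicate 2 of DMSO for 48 hours Slc6a9 at 729, and replicate 4 of sorafenib for 7 days Slc7a11 at 2019.6.

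The log2 fold change at 7 days differed from that at 48 hours, by edgeR's test of the interaction, in 14 of the 16. The differences were −1.85 for Slc7a11, −0.98 for Slc7a5, −0.77 for Slc1a3, −0.67 for Slc7a1, −0.66 for Slc43a2, −0.48 for Slc7a3, −0.41 for Slc38a1, −0.38 for Slc43a1, −0.34 for Slc38a3, −0.31 for Slc1a5, −0.23 for Slc6a9, −0.20 for Slc38a7, −0.18 for Slc1a4 and 0.85 for Slc6a15. The 5 members Slc1a4, Slc38a3, Slc38a7, Slc43a1 and Slc6a9 lost this call with total-count scaling. Slc3a2 and Slc38a2 did not pass with all libraries but passed without replicate 2 of sorafenib for 48 hours.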

How the results depend on the processing

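No single-gene result that was called, in the reported test or under the alternative, changed direction. Among those called in neither, 6 had 14 values of the other sign. Requiring a log2 change of 1 or more, which can only keep or lower a count, left 10 higher and 5 lower members at 48 hours and 10 and 9 at 7 days. It left 2 and 3 for the difference of the responses and 3 and 3 between vehicle groups. Other carriers numbered 1 higher and 0 lower at 48 hours and 1 and 1 at 7 days. Lower response genes numbered 0 at both times, as their called falls were −0.86 for Ddit4 at 48 hours and −0.46 and −0.12 for Cebpb and Gcn1 at 7 days. Scaling by total counts gave 12 lower members for the difference of the responses, 1 lower response gene at 7 days and 2 at 48 hours, the latter also with DESeq2, with its size factors and with at least 10 counts in every sample. Lower other carriers at 7 days numbered 2 with at least 10 counts in every sample, where fewer genes are tested, and 7 with voom. The cause of the other shifts was not tested.

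With 1 library left out in turn, members higher and lower ranged from 17 to 18 and 9 to 12 at 48 hours, 18 to 21 and 14 to 16 at 7 days, 4 to 6 and 15 to 22 for the difference, and 13 to 17 and 12 to 14 between vehicle groups. Lower other carriers at 7 days ranged from 2 to 5, with 2 without replicate 3 of DMSO or replicate 1 or 4 of sorafenib for 7 days. Lower response genes at 48 hours ranged from 1 to 2, with 2 without replicate 1, 3 or 4 of DMSO or replicate 3 or 4 of sorafenib for 48 hours.

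Deviations of same-numbered libraries correlated at −0.0497 to 0.0144 at 48 hours, −0.00564 to 0.128 at 7 days and −0.178 to 0.0566 between vehicle groups over 10646 genes. With libraries of other numbers the means were −0.00818 to 0.026 at 48 hours, −0.0447 to 0.00196 at 7 days and 0.0133 to 0.0807 between vehicle groups. Correlations this small do not settle whether the replicate numbers pair the libraries. With the replicate block, 17 members were higher and 10 lower at 48 hours, 19 and 15 at 7 days, 4 and 17 for the difference and 14 and 13 between vehicle groups, and at 7 days the calls of Slc1a7 and Slc38a5 were lost (FDR 0.0805 and 0.0666) and that of Slc43a3 was gained (0.0456).

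Of 140 single-gene results, 32 crossed the threshold in either direction under some alternative, most often those of Slc7a7, Slc38a2, Slc7a9 and Slc7a6. Members with a mean under 10 normalized counts are limited by depth. Without division by exon length Slc3a2 held 5.73% of the summed transporter counts with DMSO for 48 hours. Per kilobase of exon it had 911 of a summed 9669.9 in that group, a larger share, so shares between genes depend on this division.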
